A study of Rattus norvegicus with 8 samples.

Results

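The genes of prolactin and growth hormone receptor signalling were examined in immature rat ovary. The set held 8 genes, chosen by name: the receptors Prlr and Ghr, the kinase Jak2, the transcription factors Stat5a and Stat5b, and the inhibitors Socs2, Socs3 and Cish. They were measured by 11 of the 30367 probes on the array, and all 11 lay above background on all 8 arrays. Ovary RNA was hybridised to 1-colour Agilent rat expression arrays, 4 labelled control and 4 labelled PMSG. PMSG, pregnant mare serum gonadotropin, is a placental hormone given to immature rodents to start follicle growth. Per the labels, females of 26 days had a subcutaneous dose of 50 IU, the carrier being albumin phosphate buffer at 0.2 ml, while controls had that volume of carrier only. The tissue was collected after 48 h, at an age of 28 days. The strain, and whether an array holds RNA of 1 rat or of several, are not given in the sources used here, so p-values measure the spread between these samples, which may be technical in part. A level below is the log2 signal of a probe minus the 75th percentile of its array, so that 0 is the signal of a probe brighter than 75% of the probes, and a difference is the mean level of the arrays labelled PMSG minus that of the arrays labelled control.

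Prolactin and growth hormone bind related single-pass receptors of the class I cytokine family, which carry no kinase of their own and signal through the bound kinase JAK2. JAK2 phosphorylates the receptor and the transcription factors STAT5A and STAT5B, which pair, enter the nucleus and bind palindromic sites of the form TTCNNNGAA. Among the genes they activate are Cish, Socs2 and Socs3, whose products damp the same receptors. In the rodent ovary prolactin maintains the corpus luteum, and growth hormone acts on follicles partly through IGF-1.

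The oligonucleotides behind the receptor and Stat5b values are shown because the results turn on them, and the last of the 4 because it marks the end of the Ghr reading frame. All are 60 bases long and written 5′ to 3′ as in the array files, with the final TAG of the Ghr probe at 2047 in capitals where it matches a stop codon.
Prlr, probe at 851: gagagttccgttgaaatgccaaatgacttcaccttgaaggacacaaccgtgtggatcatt
Stat5b, probe at 1811: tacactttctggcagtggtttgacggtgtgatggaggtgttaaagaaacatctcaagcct
Ghr, probe at 556: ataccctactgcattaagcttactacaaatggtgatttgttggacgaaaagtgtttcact
Ghr, probe at 2047: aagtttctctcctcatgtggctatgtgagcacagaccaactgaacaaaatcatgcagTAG
The number after each name is the position in the listed transcript at which the probe starts. On the build named in the file headers, rn4, the Prlr probe is listed at chr2:59677666-59678170 on the plus strand, which spans 505 bases of the genome for 60 bases of probe. It is assigned to the transcript NM_012630. The Stat5b probe lies at chr10:89722209-89722268 on the minus strand. The 3 Ghr probes lie at chr2:52524230-52524289, chr2:52497358-52497417 and chr2:52496746-52496805 on the minus strand, with 553 bases between the probe ending in TAG and the last of them. Exon and UTR annotation of this build was not used here.

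The arrays were alike in signal, but each control array had more outlier spots (699 to 1073) than any PMSG array (448 to 698). The 75th percentile of the signal ran from 769 to 1103, between 80.8% and 84.6% of probes were above background, no spot was saturated, and all 8 arrays shared 1 slide and 1 scan date. Correlations across probes ran from 0.987 to 0.993 within control, from 0.977 to 0.991 within PMSG and from 0.960 to 0.972 between labels. Markers of granulosa cells, theca and oocytes were above background, though no probe was matched to Cyp19a1 of the granulosa list. Of the calls over all probes, 51.4% were higher in arrays labelled PMSG, and 34.5% were with each array centred on its median, a scaling that moved the median difference of all tested probes by -0.17. Lhcgr, Star and Cyp11a1, which gonadotropins are generally known to raise, were lower in the arrays labelled PMSG, and Amh, a product of small growing follicles, was higher. Groups are therefore named by their labels throughout, and every direction rests on those labels.

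Of the 8 genes, read from the brightest probe of each, 2 passed the threshold of an adjusted p under 0.05 in limma, Prlr and Stat5b, and both were lower in arrays labelled PMSG. This is 25% of the genes, beside a background of 38.9% of the 13408 named genes on the array, with 18.3% lower, 20.7% higher and 4.3% lower by at least 1 on the log2 scale. The labels did not overlap for these 2 genes, beside 41.8% of the named genes. Over single probes, 3 of 11 passed (27.3%), 2 lower and 1 higher, beside 34.2% of the 25303 probes tested, where 16.6% were lower, 17.6% were higher and 4.6% were lower by at least 1 on the log2 scale. The share of members that differed was no greater than the background share. The median difference was -0.20 over the 8 genes and 0.094 over all named genes. The labels were apart in 3 of the 11 probes, beside 36.6% of the probes tested.

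**Figure D1:**
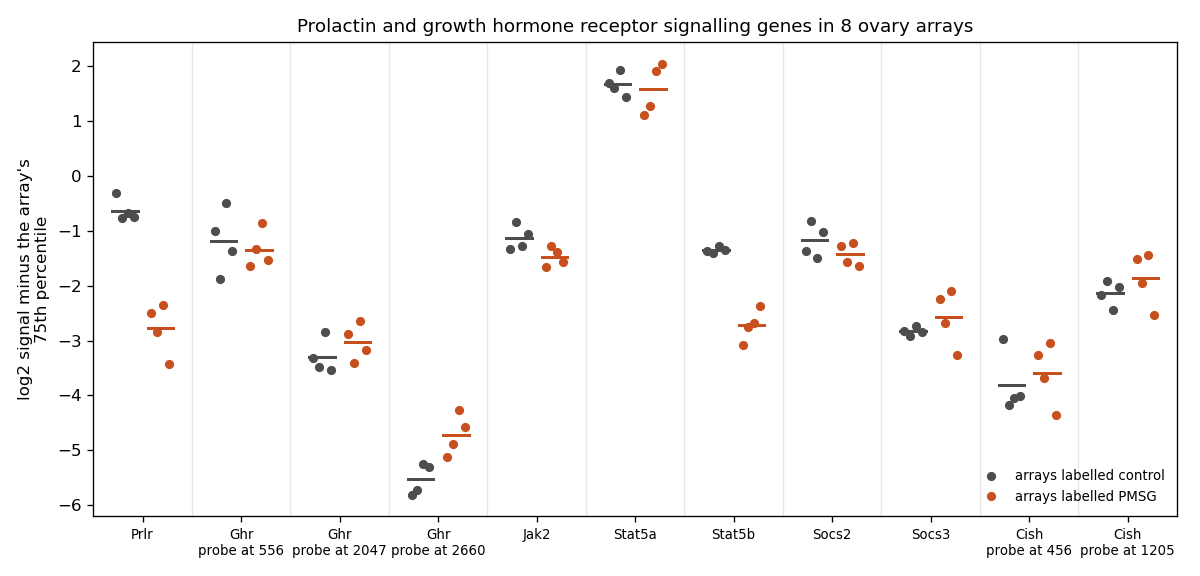
Each point is 1 array and each bar the mean of 4 arrays, for the 11 probes of the 8 genes; the vertical axis is the log2 signal minus the array's 75th percentile. Arrays labelled PMSG lie below all control arrays for Prlr (-3.42 to -2.35) and Stat5b (-3.08 to -2.38) and above them for the Ghr probe at 2660. Levels are comparable between arrays for 1 probe, not between probes.

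Prlr, the prolactin receptor, was the member with the largest difference. Its level was -0.32, -0.77, -0.67 and -0.76 on the control arrays 1 to 4 and -2.50, -2.84, -2.35 and -3.42 on the PMSG arrays 1 to 4. Every PMSG array lay more than 1 log2 unit below every control array, and the PMSG arrays spread more widely (SD 0.48) than the control arrays (SD 0.21). Control arrays averaged -0.63 ± 0.21 (SD, n = 4) and PMSG arrays -2.78 ± 0.48 (SD, n = 4). The log2 difference was -2.15 ± 0.24 (SE), with a 95% interval from -2.69 to -1.60, which is 4.43-fold lower (limma, adjusted p = 4.35e-04). Only 0.846% of the tested probes had a lower difference. In unscaled signal Prlr ranged from 101 to 837. Within the slide's rows, each with 2 arrays of a label, the difference was -1.83 in row 1 (limma, adjusted p = 0.0254) and -2.47 in row 2 (limma, adjusted p = 0.0791), where 0 of the tested probes passed. In whole ovary, fewer cells of a type and less RNA per cell cannot be told apart, here and for every gene below.

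Ghr, the growth hormone receptor, did not follow Prlr. On its brightest probe, at 556, the level was -1.01, -1.88, -0.49 and -1.38 on control arrays 1 to 4 and -1.65, -1.34, -0.86 and -1.53 on PMSG arrays 1 to 4. The labels overlapped fully, and control array 2 was the lowest and control array 3 the highest of all 8. The difference was -0.16 ± 0.30 (SE), with a 95% interval from -0.85 to 0.54 (limma, adjusted p = 0.704), and its sign turned without control array 3 (0.076). The interval excludes a difference as large as that of Prlr. Within control, the mean level of the 6 listed adipocyte markers, all tested, was also lowest on array 2 (-2.29) and highest on array 3 (0.14). Lep alone among them was lowest on control array 1. On PMSG arrays their mean level ran from -0.89 on array 4 to 0.35 on array 3, the highest of all 8. The summed level of that list, in multiples of each array's 75th percentile signal, ran from 5.97 to 42.2 in control and from 18.5 to 48.3 in PMSG arrays, no marker of it was at background on any array, and its part in the Ghr values was not tested.

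The other Ghr probes lie further along the transcript and gave higher differences. At 2047, the probe that ends in TAG, the level was -3.32, -3.48, -2.84 and -3.53 in control and -2.89, -3.41, -2.64 and -3.17 in PMSG arrays. The labels overlapped, and the difference of 0.27 ± 0.21 (SE) missed the threshold, with a 95% interval from -0.22 to 0.75 (limma, adjusted p = 0.350). At 2660 the level was -5.81, -5.73, -5.25 and -5.30 in control and -5.12, -4.89, -4.27 and -4.58 in PMSG arrays. Here every PMSG array was above every control array, by a log2 difference of 0.80 ± 0.21 (SE), with a 95% interval from 0.31 to 1.30, or 1.75-fold (limma, adjusted p = 0.0211). This probe was dim, with an unscaled signal of 18.6 to 45.2. Its call was lost with quantile normalization (0.52, limma, adjusted p = 0.147), with median centring (0.64, adjusted p = 0.0551), without control array 1 (0.71, adjusted p = 0.0577) and without control array 2 (0.74, adjusted p = 0.0601), and within either row of the slide. With another background correction (normexp) the difference was 0.35 (adjusted p = 0.0377). The mean of the 3 Ghr probes differed by 0.31 (limma, adjusted p = 0.287).

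Jak2 encodes the kinase that both receptors use. Its level was -1.32, -0.84, -1.28 and -1.06 in control arrays and -1.66, -1.27, -1.39 and -1.56 in PMSG arrays, on a probe at chr1:232974483-232974542. PMSG array 2 lay within the control range and the other PMSG arrays lay below it. The difference was -0.35 ± 0.14 (SE), with a 95% interval for this probe alone from -0.67 to -0.02, and did not pass the adjusted threshold (limma, adjusted p = 0.0935). It passed when slide row entered the fit as a block (adjusted p = 0.0320).

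The STAT5 genes, both listed on chromosome 10, differed in their behaviour. Stat5b was -1.37, -1.41, -1.27 and -1.35 in control arrays and -3.08, -2.75, -2.69 and -2.38 in PMSG arrays. The control arrays lay close together and every PMSG array lay below them. Control arrays averaged -1.35 ± 0.06 (SD, n = 4) and PMSG arrays -2.72 ± 0.29 (SD, n = 4). The log2 difference was -1.37 ± 0.15 (SE), with a 95% interval from -1.71 to -1.04, which is 2.59-fold lower (limma, adjusted p = 3.85e-04). A lower difference was found in 2.44% of the tested probes. Within slide rows it was -1.34 in row 1 (limma, adjusted p = 0.0237) and -1.41 in row 2 (limma, adjusted p = 0.106).

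Stat5a, on a probe at chr10:89819609-89819668, was 1.70, 1.60, 1.93 and 1.45 in control arrays and 1.11, 1.27, 1.91 and 2.05 in PMSG arrays. PMSG arrays 1 and 2 were the lowest of all 8 and PMSG array 4 the highest. The difference of -0.081 ± 0.23 (SE) had a 95% interval from -0.61 to 0.44 (limma, adjusted p = 0.798), which excludes the difference found for Stat5b.

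**Figure D2:**
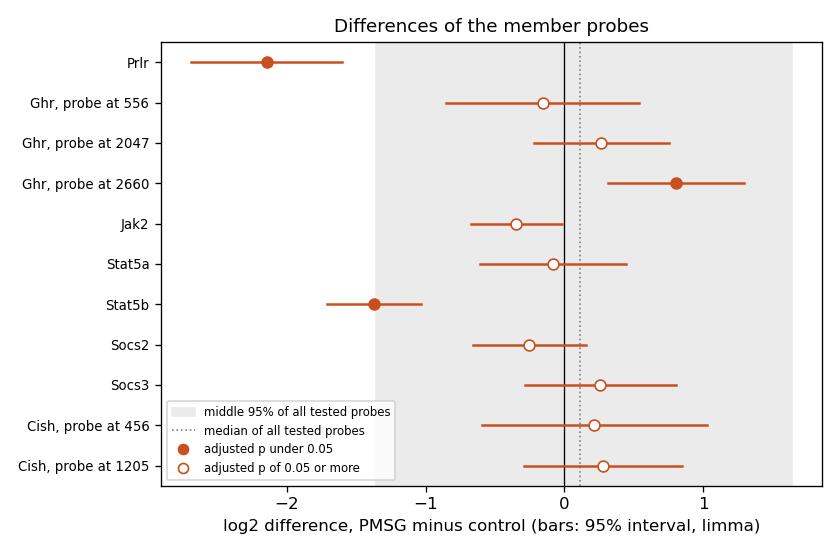
The horizontal axis is the log2 difference, PMSG minus control, of each of the 11 probes, with the 95% interval of the limma fit as a bar; filled points passed the threshold and open points did not, the dotted line is the median of all tested probes and the shaded band holds the middle 95% of them. Prlr lies at -2.15 and Stat5b at -1.37, beyond the lower edge of the band, and the other members lie between -0.35 and 0.80.

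The feedback inhibitors did not pass the threshold. Socs2, an inhibitor best known for restraining growth hormone action, was -1.37, -0.81, -1.50 and -1.03 in control and -1.28, -1.57, -1.22 and -1.64 in PMSG arrays (chr7:32605827-32605886). Control arrays 2 and 4 were the highest, and the labels overlapped, with a difference of -0.25 ± 0.18 (SE) and a 95% interval from -0.66 to 0.16 (limma, adjusted p = 0.296). Socs3, which restrains JAK kinases at several cytokine receptors, was -2.83, -2.91, -2.74 and -2.84 in control and -2.24, -2.68, -2.11 and -3.26 in PMSG arrays (chr10:107958636-107958695). PMSG arrays 1, 2 and 3 lay above all control arrays and PMSG array 4 below them. The difference was 0.26 ± 0.24 (SE), with a 95% interval from -0.29 to 0.81 (limma, adjusted p = 0.415), and 0.49 without PMSG array 4 (limma, adjusted p = 0.0315).

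Cish, the cytokine-inducible SH2 protein and a commonly used readout of STAT5 activity, has 2 probes on the array. The brighter, at 1205 (chr8:112545330-112545389), was -2.17, -1.92, -2.44 and -2.02 in control and -1.51, -1.95, -1.43 and -2.53 in PMSG arrays, a difference of 0.28 ± 0.25 (SE) with a 95% interval from -0.29 to 0.85 (limma, adjusted p = 0.405). The other, at 456 (chr8:112544581-112544640), was -2.98, -4.18, -4.05 and -4.02 in control and -3.27, -3.69, -3.05 and -4.36 in PMSG arrays, a difference of 0.22 ± 0.35 (SE) with a 95% interval from -0.59 to 1.02 (limma, adjusted p = 0.650). On both, PMSG arrays 1 and 3 were the higher PMSG arrays and PMSG array 4 was the lowest of all 8, and the labels overlapped.

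The PMSG arrays differed among themselves in a recurrent order. PMSG array 3 was the highest and PMSG array 4 the lowest of the 4 in 5 of the 11 probes, those of Prlr, Socs2, Socs3 and Cish (both probes). The same order held in 24.1% of all tested probes, and the opposite order in 6.65%. PMSG array 3 also had the lowest 75th percentile, 769, and the part of scaling in this order was not tested.

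Whether members differed in their change was tested in 6 comparisons, by exact two-sided permutation of the labels over the difference of 2 probes within each array, with p-values adjusted over the 6. With 4 arrays against 4 the smallest p is 0.0286. The pairs were chosen after the values of the members were seen, and the adjustment over the 6 does not account for that choice. The change of Prlr was more downward than that of Ghr at 556 (difference of changes -1.99, exact p = 0.0286, adjusted p = 0.0429). Stat5b changed more downward than Stat5a (-1.29, exact p = 0.0286, adjusted p = 0.0429), and Prlr more than Stat5b (-0.77, exact p = 0.0286, adjusted p = 0.0429). Within Ghr, the probe at 2660 differed from the probe at 556 (0.96, exact p = 0.0286, adjusted p = 0.0429), whereas the probe at 2047 did not pass (0.42, exact p = 0.143, adjusted p = 0.143). Socs2 against Cish did not pass either (-0.53, exact p = 0.0571, adjusted p = 0.0686). These differences within an array are not moved by a scaling of whole arrays. They can move with background correction or quantile normalization, and are given on the main values only. The dim Ghr probe at 2660 changed by 0.35 with normexp and 0.52 with quantile normalization. The probe at 556 changed by -0.15 and -0.19.

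The promoter of Cish is shown because its product is the classical STAT5 readout in this set, and that of Prlr because Prlr changed most. RefSeq promoter sequences on the assembly GRCr8 were at hand for 7 of the 8 members. The 250 bases before the start were searched for TTCNNNGAA, which reads the same on both strands, and its matches are in capitals.
Cish, chr8:116850719-116850968, plus strand: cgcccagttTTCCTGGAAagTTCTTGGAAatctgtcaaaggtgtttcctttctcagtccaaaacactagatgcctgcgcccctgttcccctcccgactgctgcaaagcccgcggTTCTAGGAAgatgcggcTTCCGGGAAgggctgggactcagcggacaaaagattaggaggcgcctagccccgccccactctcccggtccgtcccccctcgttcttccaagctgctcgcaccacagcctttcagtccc
Prlr, the second listed start, chr2:60909409-60909658, plus strand: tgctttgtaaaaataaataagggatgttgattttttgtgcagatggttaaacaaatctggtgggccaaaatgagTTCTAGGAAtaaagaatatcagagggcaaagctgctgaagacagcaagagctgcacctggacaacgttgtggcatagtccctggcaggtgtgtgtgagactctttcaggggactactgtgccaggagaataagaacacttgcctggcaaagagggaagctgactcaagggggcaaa
The Cish window holds 4 matches, beginning 241, 230, 136 and 119 bases before the start. The Prlr window holds 1, beginning 176 bases before the start. The other members with an entry, and the other listed start of Prlr, hold 0. Of the 33469 promoters of this length, 7.67% hold at least 1 match and 2 hold 4 or more. A match describes letters and is no evidence of binding. AAGGTCA, searched on both strands as a site for orphan nuclear receptors, is in 3.99% of the promoters and among the members only in that of Stat5a.

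The wider pathway was described from lists of 88 other genes in 6 roles, of which 87 had a probe and 78 were tested. Of these, 33 passed the threshold, 17 higher and 16 lower in arrays labelled PMSG, with a median difference of 0.060, beside 38.9% of all named genes. Over the 70 of them above background on all 8 arrays, 14 were higher and 15 lower, with a median difference of 0.043. Among the ligands, Prl itself, which the ovary carries in traces, was above background on 1 control and all 4 PMSG arrays. With each dim control array set to the lowest signal called above background, it was 1.65-fold higher in PMSG arrays. Without that setting the log2 difference was 1.23. Prl was tested because the 4 PMSG arrays, where it is high, were above background. Its call, counted among the 33, is therefore description only. With normexp the difference was 0.31 and the call was lost (limma, adjusted p = 0.0514). Gh1 was above background on 2 control and 3 PMSG arrays, and no difference is given for it. The placental family members Prl3b1, Prl3d1, Prl8a2 and Prl2b1 were too dim to test. Among the other JAK and STAT genes, 1 of 6 passed, Jak3, the kinase of the common gamma chain receptors, lower by -0.53 ± 0.095 (SE; limma, adjusted p = 0.00353). Stat4 was not tested and Tyk2 had no probe.

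Of 14 other cytokine receptors that use JAK kinases, 3 were higher and 1 was lower. The lower one was Il4r, the interleukin-4 receptor alpha chain, listed on the array as Il4ra: 1.49 ± 0.15 (SD, n = 4) in control and -0.38 ± 0.37 (SD, n = 4) in PMSG arrays, a difference of -1.87 (limma, adjusted p = 3.04e-04), with -1.39 on its other probe (limma, adjusted p = 0.00341). Of the 14 receptors and the members Prlr and Ghr, only Il4r and Prlr were lower. Epor, the erythropoietin receptor, was higher by 0.93, Lifr, the leukemia inhibitory factor receptor, by 0.79 and Il6st, the shared gp130 chain, by 0.52 (limma, adjusted p = 0.0103, 0.00557 and 0.0225). The Il6st call was lost without control array 1 (0.44) or 2 (0.51) and with median centring (0.35), and the Lifr call with quantile normalization (0.48), while normexp gave 0.32 for Lifr. Il5ra was too dim to test.

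Of 16 adaptors and branch signalling genes, 4 were higher and 2 lower. Irs2, an insulin receptor substrate that JAK2 can phosphorylate, was higher by 0.91, the adaptor Gab1 by 0.66 and the kinase Src by 0.47, and Grb2, the adaptor to the RAS pathway, was lower by -0.71 (limma, adjusted p = 0.00622, 0.0448, 0.00936 and 0.00148). The other Grb2 probe gave -0.29 and did not pass. The Gab1 call was lost without each of the 8 arrays except PMSG array 4, and normexp gave 0.41. Median centring gave 0.31 for Src. Of 16 other inhibitors and phosphatases, 1 was higher and 3 lower: Sirpa, a receptor that recruits phosphatases, was higher by 0.55, and the phosphatase gene Ptpn2, the ubiquitin ligase gene Cbl and the adaptor gene Sh2b3 were lower by -0.44, -0.44 and -0.41 (limma, adjusted p = 0.00665, 0.0329, 0.0128 and 0.0180). The Ptpn2 call was lost without any of control arrays 1, 2 and 4 or PMSG arrays 1 and 3, and the Sh2b3 call without control array 1 or 4. The Cbl call was lost with normexp (-0.21, limma, adjusted p = 0.111) and the Sirpa call with median centring (0.38, limma, adjusted p = 0.0694). Socs6 was too dim to test.

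Among 24 tested genes known as prolactin or growth hormone targets in some tissue, 8 were higher and 9 lower, with a median difference of -0.022. This list, like the others, was chosen with earlier results of these data known, so its counts are description only. Over the 21 above background on all 8 arrays, 6 were higher and 8 lower, with a median difference of -0.32. The 4 with the largest differences were all lower. A2m, alpha-2-macroglobulin, a prolactin-induced product of the rat corpus luteum, was 4.36, 4.47, 4.36 and 4.32 in control and -0.01, -0.82, -0.25 and 0.54 in PMSG arrays, a difference of -4.51 ± 0.25 (SE; limma, adjusted p = 3.67e-05), and -4.45 on its other probe. Hsd17b7, which converts estrone to estradiol and was first described as a prolactin receptor associated protein, was 2.13, 2.76, 2.18 and 2.18 in control and -1.47, -1.53, -1.20 and -1.61 in PMSG arrays (-3.77 ± 0.17, SE; limma, adjusted p = 1.69e-05). In both genes the labels were far apart, with no PMSG array near a control array. Lhcgr, the luteinising hormone receptor, was lower by -1.93 ± 0.27 (SE; limma, adjusted p = 0.00114).

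Akr1c18 breaks down progesterone and is a gene that prolactin represses in the corpus luteum. Its probe, listed on the array as Akr1c3 and matched through the RefSeq synonym, was above background on all 4 control arrays and 1 PMSG array. With the dim PMSG arrays set to the lowest signal called above background, it was 247.3-fold lower in PMSG arrays. This is no lower limit, because the size depends on the background correction. Without that setting the fitted log2 difference was -8.47, and it was -5.44 with normexp. Akr1c18 was tested because the 4 control arrays, where it is high, were above background. Its call is therefore description only. A2m and Hsd17b7, known to be raised by prolactin, and Akr1c18, known to be repressed by it, were lower together. Igf1, the main target of growth hormone in liver and a product of granulosa cells, was 5.41, 5.60, 5.79 and 5.51 in control and 6.04, 5.97, 6.05 and 5.96 in PMSG arrays, higher by 0.43 (limma, adjusted p = 0.0142; Igf1 was named after its values were seen). Wap was too dim to test.

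**Figure D3:**
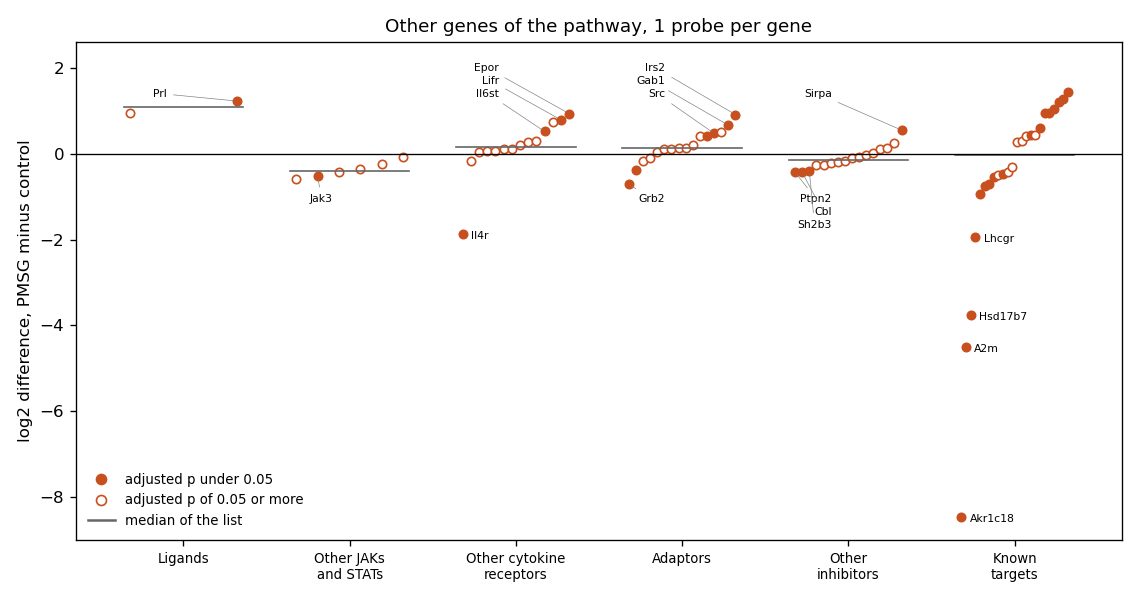
Each point is 1 of the 78 tested pathway genes in 6 lists, ordered by difference within a list; the vertical axis is the log2 difference, PMSG minus control, filled points passed the threshold, open points did not, and the horizontal line is the median of the list. Differences beyond -2 occur in the list of known targets, for A2m (-4.51), Hsd17b7 (-3.77) and Akr1c18, whose plotted value rests on PMSG signals mostly below background.

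Several lists of cell markers differed between the labels beside Prlr and Stat5b. The 4 genes of the luteal list above background on all 8 arrays (Lhcgr, Star, Cyp11a1 and Scarb1) were lower in PMSG arrays. Their mean level was 3.62 to 3.82 in control and 0.57 to 1.69 in PMSG arrays. Their summed level was 147 to 169 and 14.7 to 32.5, in multiples of the 75th percentile signal. Lhcgr, Star and Cyp11a1 are also the genes named above as raised by gonadotropins, so this list does not measure luteal cells alone. The other listed luteal markers were above background on all 4 control arrays and on few PMSG arrays, Akr1c18 on 1 and Ptgfr, the prostaglandin F2 alpha receptor, on 0. Lhcgr and Akr1c18 stand in the target list as well. Of 3 liver markers above background on all arrays, 2 were lower and 0 higher. Their mean level was -3.31 to -2.90 in control and -4.90 to -4.55 in PMSG arrays. Of 3 red blood cell markers, 1 was lower and 0 higher, with a mean level of -0.094 to 1.78 in control and -0.96 to -0.14 in PMSG arrays. Of the 6 endothelial markers above background on all arrays, 3 were lower and 1 higher, with a mean level of -0.043 to 0.19 in control and -0.41 to 0.040 in PMSG arrays and a summed level of 20.9 to 24.4 and 17.0 to 18.5. Other lists were higher in PMSG arrays: 9 of 9 oocyte markers (mean level -2.66 to -1.91 in control and -0.87 to -0.0053 in PMSG arrays), 5 of 6 leukocyte markers (-1.04 to -0.71 and -0.072 to 0.026) and 2 of 2 oviduct epithelium markers (-0.53 to 0.24 and 1.66 to 2.59). The part of any of these cells in the Prlr and Stat5b values was not tested.

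Of the 8 tested granulosa markers 1 was higher and 3 were lower, and the mean level was 2.30 to 3.16 in control and 2.54 to 2.88 in PMSG arrays. Their summed level was 136 to 251 in control and 129 to 163 in PMSG arrays. Of 5 theca markers 3 were higher and 0 lower, with a mean level of 0.88 to 1.05 in control and 1.42 to 1.94 in PMSG arrays and a summed level of 147 to 175 and 127 to 193. PMSG array 4, the lowest for Prlr, was also the lowest PMSG array for the luteal, granulosa and theca lists, but the highest for Stat5b.

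**Figure D4:**
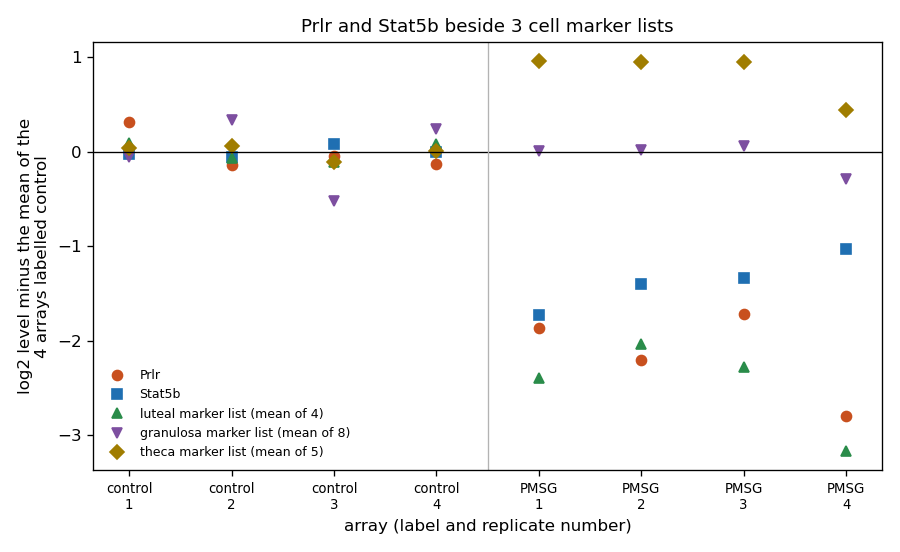
The vertical axis is the log2 level of Prlr, of Stat5b and of the mean of 3 marker lists (genes above background on all 8 arrays), each minus its own mean over the 4 control arrays, and the horizontal axis lists the 8 arrays by label and replicate number. Prlr, Stat5b and the luteal list lie below 0 on all 4 PMSG arrays, the theca list above 0, and the granulosa list on both sides of it.

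The genes most like Prlr and Ghr across arrays were found by the root mean square difference of their centred levels over the 8 arrays, among 12562 genes above background on all 8. For Prlr they included Npw, a neuropeptide (0.114), Reg3g, a secreted lectin (0.140), and Padi3, a peptidyl arginine deiminase (0.167). Their differences ran from -2.35 for Reg3g to -2.12 for Npw, and the labels overlapped in none of the 3. Genes picked by likeness over all 8 arrays share the difference through that choice. These values, and those for Ghr below, are therefore description only. For Ghr at 556 they were S100b, a calcium-binding protein (0.179), Sla, a SRC-like adaptor (0.187), Slc39a11, a metal transporter (0.189), and Nnmt, a nicotinamide methyltransferase (0.201), with differences from -0.31 for Nnmt to -0.013 for S100b.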

How the data were processed

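Total RNA (500 ng) was labelled with Cy3, per the labels' protocols. Spots were read with Agilent Feature Extraction 11.5.1.1, per the file headers, and the scanner files deposited by the authors hold processed signal intensity and other per-spot calls (well above background, outlier, saturated). The log2 value table deposited by the authors matched its own array best in every column (correlation 0.998 to 1.000) and served as an alternative; 0 sample columns were left out. Control and outlier spots were dropped, spots of a probe averaged on the log2 scale, and each array's 75th percentile subtracted. Of 30367 probes, 17 had no usable value, and the 25303 above background on at least 4 of the 8 arrays were tested with limma 3.58.1 in R 4.3.3 (lmFit, eBayes, label as the only term), with Benjamini-Hochberg adjustment over all of them and a threshold of 0.05. Precision is limited by 4 arrays per label.

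Genes were read from their brightest probe. Those named are all 8 members, in each pathway list the up to 4 with the largest difference past the threshold and those not tested, and the 4 genes most like Prlr and Ghr; 2 genes that this rule names are not reported here. The members and lists were chosen with earlier results of these data known. Sequences are from the array files and from RefSeq promoters (GRCr8). On simulated data with 25303 probes and 200 changed, 54% of changes of 1 and 82% of changes of 2 log2 units were recovered, with 10 false calls. The simulation had independent errors and far fewer changed probes than the 8658 called here. Its shares therefore check the procedure and do not give the power or error rate of this comparison. Alternatives were another background correction, quantile normalization, median centring, the deposited table, other filters, the mean of a gene's probes, blocks for replicate number and slide row, array weights and leaving out each array. Of these, 2 more were chosen after seeing the data: a 75th percentile over probes above background on all arrays, and differences between probes within an array.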

Additional observations from a re-analysis of the deposited data

Results flagged for a closer look

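Among the named genes, 58 groups of 4 arrays were examined for 1 array apart from the other 3, by the gap to its nearest neighbour as a share of the group's range, and 4 groups exceeded the limit of 0.829, where chance gives about 2.9. In the Cish probe at 456, control array 1 was at -2.98 and the other control arrays at -4.18 to -4.02 (share 0.864). In Hsd17b7, control array 2 was at 2.76 and the others at 2.13 to 2.18 (share 0.909). In Gab1, PMSG array 4 was at -4.50 and the others at -3.61 to -3.54 (share 0.936). In Sh2b3, PMSG array 3 was at 0.41 and the others at 0.73 to 0.77 (share 0.879). The 4 arrays concerned are different ones. Neither Prlr nor Stat5b had such an array.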

How the results depend on the processing

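The counts of 8658 probes, 2 member genes, 3 member probes and 33 pathway genes past the threshold held within 1.5 times under the alternatives other than single slide rows. Within row 1, 3351 probes and 12 pathway genes passed. Within row 2, 0 probes, 0 member genes, 0 member probes and 0 pathway genes passed in limma, where 6015 probes, 3 member probes and 19 pathway genes had an unadjusted p under 0.05. Each row holds 2 arrays per label. Leaving out 1 array gave 6552 to 11382 probes, 2 to 3 member genes, 2 to 4 member probes and 28 to 37 pathway genes. Prlr ran from -2.47 to -1.75 and Stat5b from -1.54 to -1.06 over 20 alternatives, and each lost its call only within row 2. The sign turned within row 1 for Ghr at 556 (0.53) and Stat5a (0.070) and within row 2 for Cish at 456 (-0.30). It also turned without control array 3 for Ghr at 556, which ran from -0.39 to 0.076 over single arrays left out, and without control array 3 or PMSG array 1 or 2 for Stat5a, which ran from -0.24 to 0.076. The cause was not tested.

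The labels do not say that replicate numbers pair the samples. Between arrays of the same number, the correlations of deviations were 0.0444, 0.0361, 0.183 and -0.0192. Arrays of unlike number were not compared, so these values cannot decide whether the numbers pair samples. With the replicate block 7346 probes, 2 member genes, 3 member probes and 31 pathway genes passed. Signal over background limits the Ghr probe at 2660, Prl, Gh1 and Akr1c18.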
